A study of Solanum lycopersicum with 12 samples.

Results

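Some tomato genes had next to no transcripts in leaflets of control plants that received a mock deposition of larvae. They were counted in leaflets after 5 h and in others after 24 h of feeding by larvae of the leafminer *Tuta absoluta*. Members were the genes with at most 10 counts in each of the 6 control libraries and a mean of at least 2 CPM (counts per 1e6 counts of the library) in both groups of infested libraries. The rule was met by 28 of 34075 genes. The low control level and the presence at both feeding times are therefore set by the rule and are given as a description. The order of the feeding times and the spread between replicates were not used to choose the genes. The floor on the mean of each infested group still limits which differences between the times and which spreads can be seen.

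RNA of tomato leaflets (*Solanum lycopersicum*, cultivar Better Bush, grown on a nutrient film system in a growth chamber) was sequenced in 4 groups of 3 libraries. The infested 24 h and infested 5 h groups came from 6 infested plants in all, with 6 larvae of the third larval stage placed on the terminal leaflets of 1 leaf and removed at harvest. The control 24 h and control 5 h groups came from 6 plants that received a mock deposition. Each treatment had 6 plants and 6 libraries, but the sources used here do not state that a library was 1 plant. Plant age is not given for this experiment. The p-values measure the spread between these libraries, which may be technical. A leaflet holds mined and intact tissue together, and more cells that express a gene cannot be told apart from more RNA per cell.

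Leaves answer chewing and mining insects with wound signals, among them jasmonates, which switch on defence genes within hours in the damaged leaf. In tomato, well known products of this response are proteinase inhibitors, which hamper the digestion of the larva, and polyphenol oxidases, which turn plant phenolics into reactive quinones. Many of these genes are nearly silent in undamaged leaves.

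Library totals lay between 19655669 and 28209033 counts, so that 3 counts correspond to 0.106 to 0.153 CPM. All 26 light harvesting genes, the leaf marker list, had more than 1 CPM in each of the 12 libraries. Their summed CPM was 7686 to 11648 in infested 24 h, 70118 to 85656 in infested 5 h, 18390 to 25151 in control 24 h and 81469 to 91235 in control 5 h libraries. In every library 63.9% to 68.2% of the genes with 1 to 20 counts had an even count, and genes with 2 counts were 2.39 to 3.02 times as frequent as genes with 1 count. Whether both reads of a pair were counted is not stated in the sources used here, and the limit of 10 counts may stand for fewer fragments. Intervals and floors below treat each count as independent, cover counting error only and would then be too narrow. One library stood apart for these genes. Infested 24 h replicate 2 had 12 of the 28 genes at 10 counts or fewer and 4 of them without any count, whereas in infested 24 h replicates 1 and 3 and in infested 5 h replicates 2 and 3 all 28 were above 10 counts. Infested 5 h replicate 1 had 1 gene at 10 counts or fewer. Counts were also compared between pairs of libraries over genes with at least 20 counts in the pair. The chi-square per degree of freedom was 147 and 109 between infested 24 h replicate 2 and replicates 1 and 3. Between replicates 1 and 3 it was 57.2, so replicate 2 also stood apart beyond these genes. Results at 24 h are given with and without infested 24 h replicate 2.

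In the 6 control libraries the 28 genes gave 168 values, of which 104 were 0. Of the 64 values above 0, 49 were even numbers. No count was found in any control library for 6 genes, namely *Solyc08g076980*, *Solyc10g076670*, *Solyc04g078370*, *Solyc12g056480*, *Solyc10g086680* and *Solyc03g020050*. The 28 genes together held 0.0909%, 0.0107% and 0.0696% of all counts in infested 24 h replicates 1, 2 and 3, and 0.0156%, 0.0416% and 0.0178% in infested 5 h replicates 1, 2 and 3. In control leaves they held 0.000170% to 0.000290% at 24 h and 8.7e-05% to 0.000201% at 5 h. The mean share was 0.0571% ± 0.0416 in infested 24 h and 0.0250% ± 0.0144 in infested 5 h leaves (SD, n = 3 each), and both groups overlapped. Without infested 24 h replicate 2, the mean share of the 24 h group was 0.0803%, and all libraries left were above those of 5 h. A large part of the 24 h share came from few genes. The 4 genes with the highest mean CPM took 67.7%, 54.1% and 70.8% of the genes' counts in infested 24 h replicates 1, 2 and 3, and 13.5%, 25.9% and 17.1% in infested 5 h replicates 1, 2 and 3. The mean was taken over all 6 infested libraries, and the 24 h values of these genes weigh most in it. Their higher share at 24 h is therefore partly set by the choice.

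**Figure D1:**
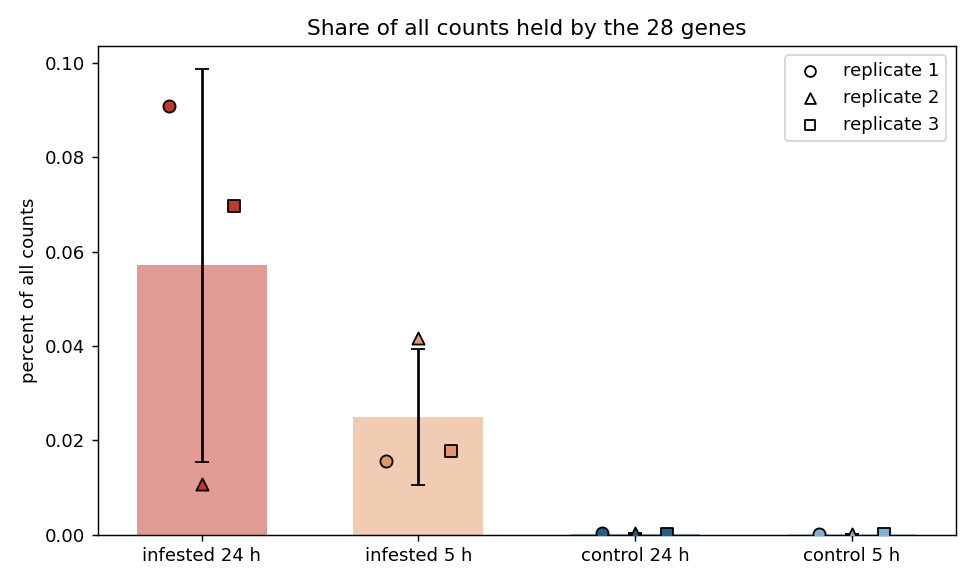
Percent of all counts held by the 28 genes (vertical axis) in each library of the 4 groups (horizontal axis). Bars are means, error bars are SD over 3 libraries and symbols are replicates. Infested 24 h replicate 2, at 0.0107%, lies below all infested 5 h libraries, and the control libraries lie at or below 0.000290%.

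As the rule required, the genes differed from control at both times. CPM did not overlap between infested and control libraries for 23 of the 28 genes at 24 h, where 27.0% of all 18200 genes tested were higher without overlap, and for all 28 at 5 h, where 17.5% were. With infested 24 h replicate 2 left out, none of the 28 overlapped at 24 h, where 30.8% of all genes tested were higher without overlap. An adjusted p below 0.05 in edgeR's quasi-likelihood test was reached by 28 genes at 24 h (11.8% of all genes tested were called higher) and by 27 at 5 h (6.94% of all genes tested were called higher). These contrasts chose the genes, so nothing is read from these counts. The gene left at 5 h was *Solyc11g010980*, at an adjusted p of 0.0501 by the same test. Of the 28 genes, 20 were called at 5 h without infested 5 h replicate 2, where 783 of 18133 genes tested were called higher. Without control 5 h replicate 3, 2 or 1, 18, 19 or 20 were called, beside 832, 883 or 839 of all genes tested. With all libraries 1263 of 18200 were called higher, so calls fell over all genes too.

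**Figure D2:**
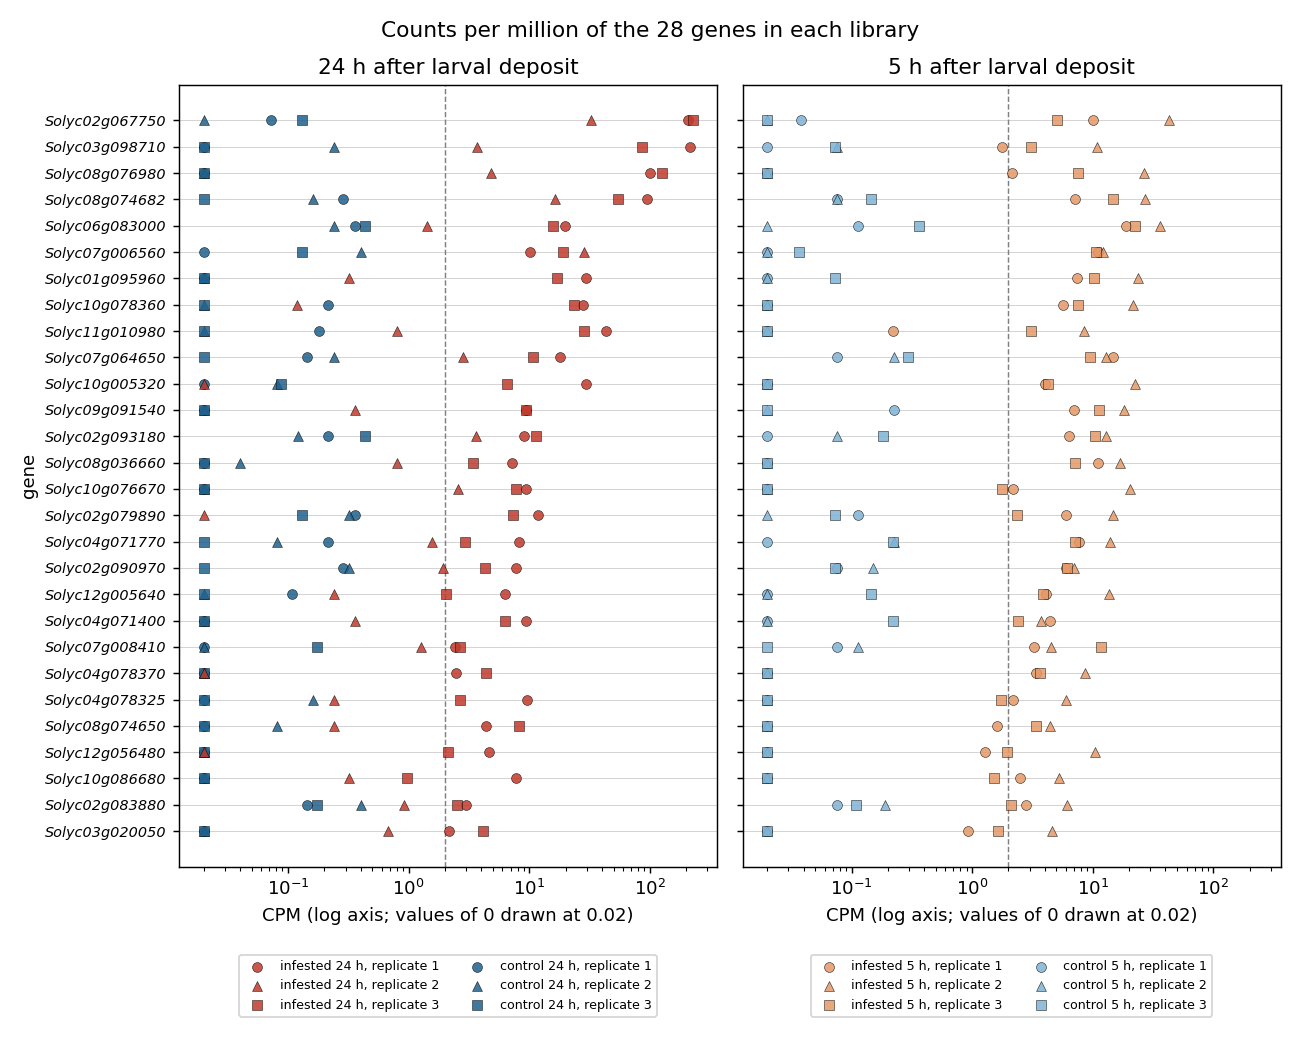
CPM of the 28 genes (horizontal log axis, values of 0 drawn at 0.02) in each library at 24 h (left) and 5 h (right), with infested libraries in red or orange and control libraries in blue. Symbols are replicates and the dashed line marks 2 CPM. The triangle of infested 24 h replicate 2 is the leftmost infested symbol for all genes at 24 h except *Solyc07g006560*, at 28.3 CPM.

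A function was given for 10 of the 28 genes in the study's supplementary tables, which annotate only part of the genes. The other 18 are named by identifier alone. CPM is not corrected for gene length. Ranks by CPM served only to choose genes and do not compare transcript levels between genes.

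Among the annotated genes were a polyphenol oxidase and a serine endopeptidase inhibitor, kinds of protein known from antinutritive defence. The polyphenol oxidase gene *Solyc08g074650* had 4.39, 0.239 and 8.30 CPM in infested 24 h leaves and 1.61, 4.40 and 3.36 CPM in infested 5 h leaves, against 2 counts in 1 control 24 h library and none in the other control libraries. The polyphenol oxidase genes of tomato are close copies of each other, and how the counting treated reads shared by copies is not stated, so its values are uncertain. The serine endopeptidase inhibitor gene *Solyc03g020050*, a kind of protein that blocks digestive proteinases, had 2.15, 0.677 and 4.11 CPM in infested 24 h leaves and 0.917, 4.57 and 1.63 CPM in infested 5 h leaves. It had no control count, which makes its mean at least 58.3-fold higher at 24 h and at least 63.5-fold higher at 5 h, with the floor set at 3 counts over the control group. Infested 24 h replicate 2 was the lowest of its time for both of these genes.

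The ribonuclease T2 gene *Solyc07g006560* was the exception of the whole set. Enzymes of this family cut RNA, and some of them are known in tomato from phosphate starvation and wounding. It had 10.2, 28.3 and 19.2 CPM in infested 24 h leaves and 11.0, 12.1 and 10.6 CPM in infested 5 h leaves, against at most 10 counts in a control library (0.403 CPM in control 24 h replicate 2). Its infested 5 h libraries were close to each other, with a coefficient of variation of 6.49%, the smallest of the 28 genes at that time. At 24 h its highest value was in replicate 2, the library where the 27 other genes had their lowest.

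Other annotated genes encode enzymes of metabolism or hydrolysis. The carbonic anhydrase gene *Solyc02g067750*, whose product interconverts CO2 and bicarbonate, had 206, 32.7 and 226 CPM in infested 24 h leaves. It had 10.1, 43.0 and 5.09 CPM in infested 5 h leaves, against 0 to 3 counts in the control libraries. The lowest library at 24 h was therefore below the highest library at 5 h. The tryptophan synthase beta chain gene *Solyc10g005320*, which acts in the last step of tryptophan synthesis, had 29.4, 0 and 6.58 CPM in infested 24 h leaves and 4.04, 22.4 and 4.27 CPM in infested 5 h leaves, against 0 to 2 counts in control libraries. Each time had 1 library well above the others. The gene *Solyc01g095960* is annotated as diacylglycerol O-acyltransferase with domains of the WSD1 family, whose member in *Arabidopsis* makes wax esters of the cuticle. It had 29.8, 0.318 and 16.9 CPM in infested 24 h leaves and 7.38, 23.9 and 10.2 CPM in infested 5 h leaves, against 2 counts in 1 control library in all. The hydrolase gene *Solyc08g076980* had 101, 4.85 and 125 CPM in infested 24 h leaves and 2.13, 26.4 and 7.58 CPM in infested 5 h leaves, with no count in control leaves. Its mean was at least 1944-fold higher at 24 h and at least 322-fold higher at 5 h.

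Oxidoreductases made up the rest of the annotated genes. *Solyc10g078360*, annotated as an oxidoreductase, had 27.8, 0.119 and 23.4 CPM in infested 24 h leaves and 5.69, 21.6 and 7.48 CPM in infested 5 h leaves, against 0 to 6 counts in control libraries. The zinc-binding oxidoreductase gene *Solyc11g010980* had 43.1, 0.796 and 28.2 CPM in infested 24 h leaves and 0.220, 8.44 and 3.05 CPM in infested 5 h leaves, against 0 to 5 counts in control libraries. The heme- and iron-binding oxidoreductase gene *Solyc04g078370* had 2.46, 0 and 4.41 CPM in infested 24 h leaves and 3.38, 8.65 and 3.66 CPM in infested 5 h leaves, without a control count. All 3 genes were lowest at 24 h in replicate 2 and highest at 5 h in replicate 2.

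Of the genes without annotation, *Solyc03g098710* had 214, 3.66 and 86.1 CPM in infested 24 h leaves and 1.76, 10.9 and 3.05 CPM in infested 5 h leaves, against 0 to 6 counts in control libraries. *Solyc08g074682* had 94.9, 16.5 and 54.7 CPM in infested 24 h leaves and 7.16, 27.4 and 14.9 CPM in infested 5 h leaves, against 0 to 8 counts in control libraries. In both genes infested 24 h replicates 1 and 3 lay above every 5 h library. *Solyc06g083000* had 19.9, 1.43 and 15.7 CPM in infested 24 h leaves and 18.7, 36.4 and 22.6 CPM in infested 5 h leaves, against 0 to 10 counts in control libraries. *Solyc07g064650* had 18.0, 2.83 and 10.8 CPM in infested 24 h leaves and 14.8, 12.9 and 9.46 CPM in infested 5 h leaves, against 0 to 8 counts in control libraries. For this last gene infested 24 h replicate 1 was above and replicate 3 within the 5 h range.

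The remaining genes without a control count showed the same layout. *Solyc10g076670* had 9.49, 2.55 and 7.74 CPM in infested 24 h leaves and 2.17, 20.2 and 1.78 CPM in infested 5 h leaves. *Solyc10g086680* had 7.78, 0.318 and 0.972 CPM in infested 24 h leaves and 2.50, 5.21 and 1.53 CPM in infested 5 h leaves. *Solyc12g056480* had 4.61, 0 and 2.13 CPM in infested 24 h leaves and 1.28, 10.5 and 1.93 CPM in infested 5 h leaves. Their means were at least 56.7-fold higher than control at 24 h (*Solyc12g056480*) and at least 82.3-fold higher at 5 h (*Solyc10g086680*). In each of these genes replicate 2 was the lowest library at 24 h and the highest at 5 h.

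The 8 genes whose libraries are not given singly had group means of 2.14 to 8.03 CPM in infested 24 h and 3.52 to 12.2 CPM in infested 5 h leaves. The mean was lower at 24 h in 7 of them and higher in 1, *Solyc04g071400*, and these differences did not pass the test. Replicate 2 was the lowest library at 24 h in all 8 and the highest at 5 h in 7.

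The comparison of infested 24 h with infested 5 h leaves asked whether genes that are on at both times rose further or fell back. By edgeR's quasi-likelihood test over 18200 genes with Benjamini-Hochberg adjustment, 2 of the 28 genes were higher at 24 h, where 17.3% of all genes tested were called higher, and 2 were lower, where 17.4% of all genes tested were called lower. At an unadjusted p below 0.05, 3 were higher (21.9% of all genes tested) and 3 lower (22.4% of all genes tested). The share called, 14.3% of the 28 genes, was below the 34.7% of all genes tested. The rule left out genes that reached the CPM limit at only 1 time, and the 28 genes spread more between replicates. Both can lower the share called, so nothing is read from it. *Solyc03g098710* was higher at 24 h by a log2 fold change (log2FC) of 3.93 (SE 1.07, adjusted p = 0.0135), and the carbonic anhydrase gene *Solyc02g067750* by 2.70 (SE 0.78, adjusted p = 0.0182). Both were above all 5 h libraries in infested 24 h replicates 1 and 3 and not in replicate 2. Without that replicate, the log2FC were 4.52 (adjusted p = 0.00039) and 3.21 (adjusted p = 0.0026) by the same test. Over 21 other settings the adjusted p of edgeR or DESeq2 ranged from 0.00039 to 0.0776 for *Solyc03g098710* and from 0.0023 to 0.0679 for *Solyc02g067750*, and each stayed below 0.05 in 16.

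*Solyc08g036660* fell by 1.91 on the log2 scale at 24 h (SE 0.64, adjusted p = 0.0407, edgeR), with 7.25, 0.796 and 3.44 CPM in infested 24 h leaves and 11.1, 16.8 and 7.07 CPM in infested 5 h leaves. It was present in control leaves with 1 count in all. *Solyc07g008410* also fell by 1.91 (SE 0.66, adjusted p = 0.0417, edgeR), with 2.42, 1.27 and 2.65 CPM in infested 24 h leaves and 3.23, 4.54 and 11.8 CPM in infested 5 h leaves. This was the only one of the 28 genes whose CPM did not overlap between the feeding times, beside 48.9% of all genes tested in either direction. Over 21 other settings the fitted change was below 0 in each for both genes, with an adjusted p below 0.05 in 12 of them (edgeR or DESeq2, ranges 0.0134 to 0.150 and 0.0099 to 0.255). Neither gene has an annotation.

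The count of called genes depended on single libraries. Without infested 24 h replicate 2, 5 genes were higher and 1 was lower by edgeR's test, where 17.2% of all genes tested were called higher and 16.1% lower. The share called higher, 17.9% of the 28 genes, was thus near that of all genes tested. The 3 genes added were *Solyc08g074682* (log2FC 1.90, adjusted p = 0.0086), the hydrolase gene *Solyc08g076980* (2.96, adjusted p = 0.0267) and the zinc-binding oxidoreductase gene *Solyc11g010980* (2.89, adjusted p = 0.0328). With all libraries their log2FC were 1.43 (adjusted p = 0.0787), 2.38 (adjusted p = 0.149) and 2.30 (adjusted p = 0.172). Their adjusted p passed 0.05 in 4, 2 and 2 of 21 other settings, with upper ends of 0.289, 0.341 and 0.429. The number higher was 0 without infested 5 h replicate 1 (2562 of 18135 genes tested) or 3 (2333 of 18130). It was 1 without infested 24 h replicate 1 (2730 of 18005) or 3 (2729 of 18103). It was 3 without infested 5 h replicate 2 (13.4% of all genes tested). The number lower was 0 without infested 5 h replicate 2 (14.1% of all genes tested) or infested 24 h replicate 3 (2795 of 18103). It was 3 without infested 24 h replicate 1 (2630 of 18005). It was 1 without infested 24 h replicate 2, and without infested 5 h replicate 1 (2620 of 18135) or 3 (2495 of 18130). It was also 1 without control 24 h replicate 1 (2825 of 18117) or 2 (3168 of 18124). The same held without control 5 h replicate 1 (2992 of 18121).

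The direction of the fitted change moved with the libraries numbered 2 of both infested groups. With all libraries the log2FC of 24 h over 5 h was above 0 in 9 of the 28 genes and below 0 in 19, with a median of −0.45, beside −0.02 over all genes tested. Without infested 24 h replicate 2 it was above 0 in 15 and below 0 in 13, with a median of 0.09. Without infested 5 h replicate 2 it was above 0 in 17 and below 0 in 11, with a median of 0.40. In CPM, infested 24 h replicates 1 and 3 were both above all 5 h libraries in 7 genes (beside 39.7% of all genes tested), both below in 1 (beside 18.3%) and neither in 20. Normalization by library totals alone shifted the median log2FC of all genes tested to 0.29 and the share of higher genes among all calls to 77.1%, beside 49.9% with TMM factors, and it called 3 of the 28 genes higher, where 30.2% of all genes tested were, and none lower, where 8.95% were (2 lower below an unadjusted p of 0.05, edgeR). The difference between the responses at the 2 times, each taken against its own control, was called in none of the 28 genes by edgeR's quasi-likelihood test, with none below an unadjusted p of 0.05, where 2.16% of all genes tested were called. The likelihood ratio test also called none, with 3 below an unadjusted p of 0.05, where 4.63% of all genes tested were called. For genes with control counts at or near 0 this difference has very wide errors, such as an SE of 4.60 on the log2 scale for *Solyc03g098710*, and it does not show that the responses were alike.

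**Figure D3:**
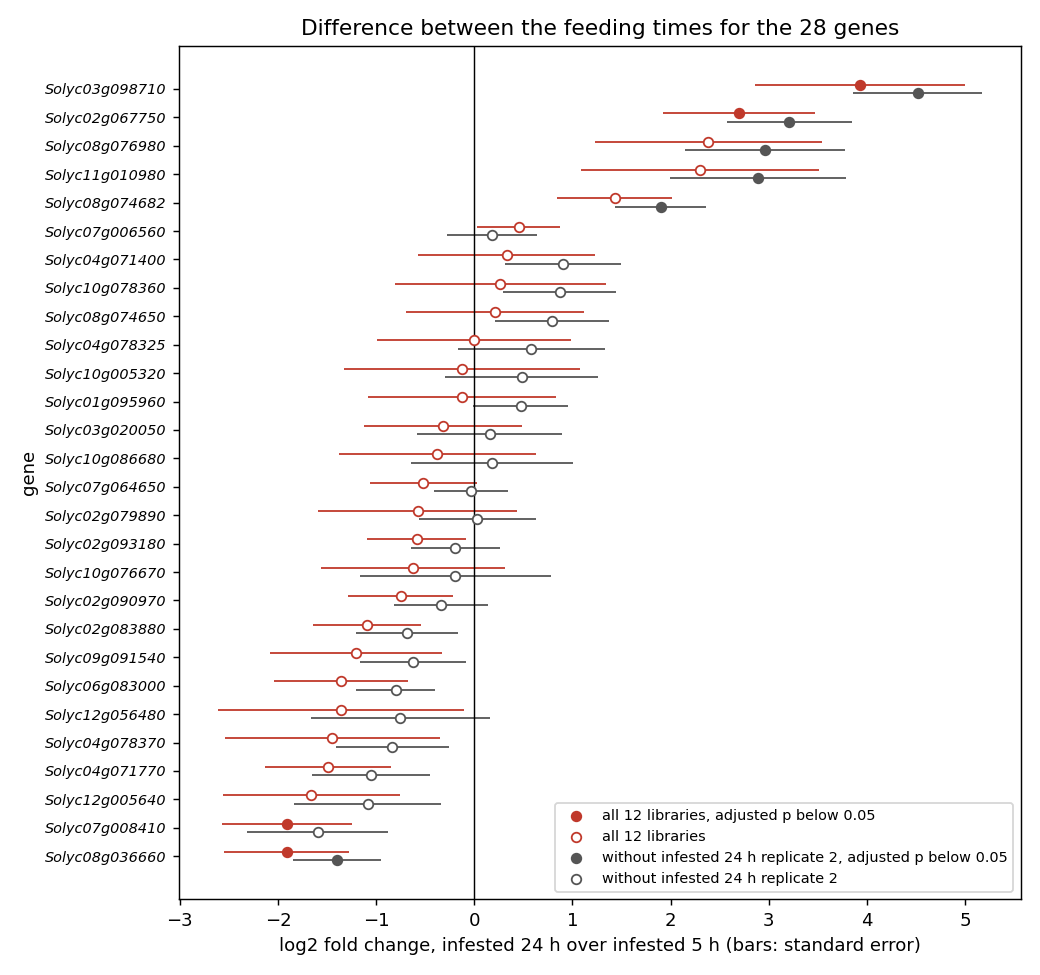
Log2FC of infested 24 h over infested 5 h (horizontal axis) for the 28 genes (vertical axis), with all 12 libraries in red and without infested 24 h replicate 2 in grey. Bars are standard errors and filled symbols have an adjusted p below 0.05. 2 genes are filled on either side of 0 with all libraries, and 5 on the right and 1 on the left without that replicate.

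The replicates of the infested groups spread widely for these genes. The median coefficient of variation of CPM over the 28 genes was 84.1% in infested 24 h and 63.0% in infested 5 h libraries, beside 20.9% and 15.1% over all genes tested. The rule asks for a group mean, which 1 high library can reach, so this spread is partly open to the choice of the genes. At 24 h, replicate 2 was the lowest library in 27 of the 28 genes, beside 21.0% of all genes tested. It lay below all 5 h libraries in 21 genes, beside 19.6% of all genes tested. It was below 50% of each of the other 24 h libraries in 25 genes and below 10% of each in 14. These 2 counts were not taken over all genes tested. The median level in this replicate was 6.49% of the mean of replicates 1 and 3 (quartiles 2.39% and 23.4%). Over all genes tested the median was 110% (quartiles 88.7% and 133%). Of what was left in it, 72.7% came from *Solyc02g067750*, *Solyc07g006560* and *Solyc08g074682*, which made up 34.2% and 43.1% of the counts of the 28 genes in replicates 1 and 3. These 3 genes are those with the highest CPM in replicate 2, so their larger share there is partly set by the choice. At 5 h, replicate 2 was the highest library in 25 of the 28 genes, beside 23.4% of all genes tested, and its median level was 256% of the mean of the other libraries.

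Other induced genes were also lower in infested 24 h replicate 2, and their median level in it rose with the control CPM. Higher than control at both times were 758 genes, 27 of them among the 28, by edgeR's quasi-likelihood test. The 731 others were chosen by calls on the same libraries. In them the median level in this replicate was 75.9% of the mean of replicates 1 and 3, and it was the lowest library in 61.8%. Grouped by mean control CPM, the median was 31.5% below 0.5 CPM (68 genes), 48.7% from 0.5 to 2 CPM (64 genes), 66.3% from 2 to 10 CPM (240 genes), 85.2% from 10 to 100 CPM (328 genes) and 87.6% from 100 CPM up (31 genes). All genes tested had a median of 110%. Genes that met the same control limit but reached 2 CPM at only 1 time had medians of 24.2% (24 h only, 41 genes) and 35.8% (5 h only, 21 genes), and the 15 genes with the same CPM limits and a control maximum of 11 to 20 counts had 15.9%. The level includes CPM already present in control leaves, so it would rise with control CPM even at an equal loss of induction. The 731 genes were also called with this replicate included, which limits how low it can lie in them. These medians are descriptions of 1 library, and their differences were not tested.

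**Figure D4:**
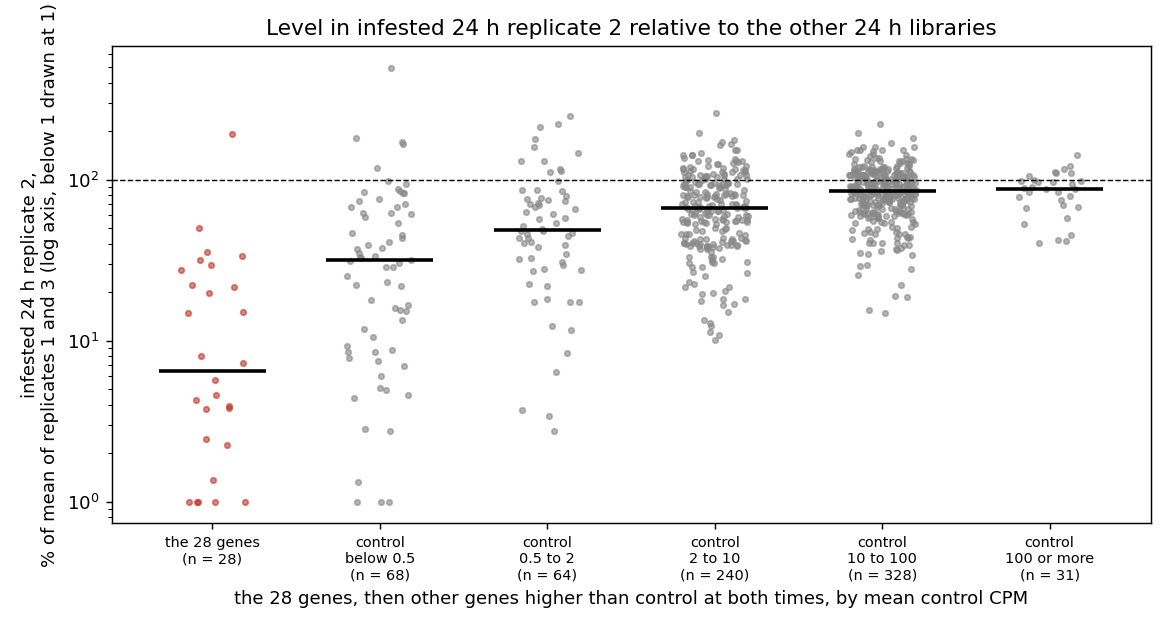
CPM of infested 24 h replicate 2 as percent of the mean of replicates 1 and 3 (vertical log axis, values below 1 drawn at 1) for the 28 genes in red and for 731 other genes higher than control at both times in grey, by mean control CPM (horizontal axis). Each point is 1 gene and lines are medians, which are 6.49% for the 28 genes and 31.5% to 87.6% for the other groups in order of control level. The percent includes CPM already present in control leaves.

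The response to wounding list, 12 genes of mostly proteinase inhibitors that the study picked from these libraries, had the same library order. Its summed CPM was 32856, 10571 and 30189 in infested 24 h replicates 1, 2 and 3, and 1378, 4037 and 3022 in infested 5 h replicates 1, 2 and 3. Infested 24 h replicate 2 was at 33.5% of the mean of the other libraries, against 13.3% for the summed CPM of the 28 genes. In control leaves the sum was 103 in control 24 h replicate 2 and 30.5 to 32.1 in the other 5 libraries. The light harvesting sum of infested 24 h replicate 2, 9570 CPM, lay between those of replicates 1 and 3. What set infested 24 h replicate 2 apart was not tested.

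None of the 28 genes was in the phenylpropanoid, polyamine and monoamine or response to wounding lists taken from the study. Of the 58 phenylpropanoid genes, which make the hydroxycinnamoyl units of phenolamides, 54 were found in the counts, 35 reached 2 CPM at both times and each of these had more than 10 counts in a control library. Of the 39 tested, 17 were higher and 2 lower at 24 h and 14 were higher and 1 lower at 5 h than control by edgeR's test. Of the 17 polyamine and monoamine genes, 12 were tested, 7 of them higher at 24 h and 6 at 5 h, and none lower. All 12 that reached the CPM limit were above the control limit. Of the 12 response to wounding genes, 11 were higher at each time, and the 11 that reached the CPM limit at both times had more than 10 counts in a control library. The median log2FC of that list was 8.61 at 24 h and 6.45 at 5 h, beside 0.02 and −0.03 for all genes tested.

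The 28 genes lay on 11 of the tomato chromosomes by their identifiers, with 5 on chromosome 2, 4 each on chromosomes 4, 8 and 10, and 3 on chromosome 7. Identifiers run in genome order, and 2 pairs had identifier numbers at most 50 apart (45 and 32). How often this occurs over all genes tested was not counted. The first was *Solyc04g078325* with the heme- and iron-binding oxidoreductase gene *Solyc04g078370*. The second was the polyphenol oxidase gene *Solyc08g074650* with *Solyc08g074682*, for which no annotation was at hand. *Solyc04g078325* had 9.54, 0.239 and 2.69 CPM in infested 24 h leaves and 2.17, 5.99 and 1.73 CPM in infested 5 h leaves, against 4 counts in 1 control library.

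The thresholds left close neighbours on both sides. Just inside the CPM limit were *Solyc07g008410*, with a mean of 2.12 CPM in infested 24 h leaves, and *Solyc02g083880*, with 2.14 CPM. Just outside were *Solyc08g036640*, with 1.95 CPM in infested 24 h and 14.3 CPM in infested 5 h leaves, and *Solyc10g084560*, with 4.25 CPM in infested 24 h and 1.92 CPM in infested 5 h leaves. At the control limit of exactly 10 counts were 5 genes, *Solyc02g079890*, *Solyc02g083880*, *Solyc02g093180*, *Solyc06g083000* and *Solyc07g006560*. Next outside were *Solyc11g071480*, with 12 counts in 1 control library, and *Solyc12g049400*, *Solyc01g105650* and *Solyc02g078890*, each with a maximum of 13. Only 6 of the 28 genes had at least 2 CPM in each of the 6 infested libraries, *Solyc02g067750*, *Solyc02g093180*, *Solyc07g006560*, *Solyc07g064650*, *Solyc08g074682* and *Solyc08g076980*. In infested 24 h replicate 2 alone only 8 of the 28 reached 2 CPM, whereas 27 reached it in both other 24 h libraries and 20 in all 5 h libraries.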

How the data were processed

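According to the labels and the study's methods, the authors used Trimmomatic on the paired reads, BWA-MEM for mapping to the tomato genome (ITAG2.4) and featureCounts for reads per gene. Deposited are raw, whole-number counts. The sources used here do not give strand, treatment of shared reads or counting of pairs. File headers name 1 shared input for all 5 h libraries and another for all 24 h libraries, so harvest time and that input cannot be told apart. Each file ended with 1 blank line, which was left out.

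CPM is count divided by library total. A gene was tested if 3 or more libraries exceeded 1 CPM (18200 genes, among them all 28). Tests used edgeR 4.0.16 in R 4.3.3: TMM factors, all 12 libraries with 1 mean per group, quasi-likelihood F test and Benjamini-Hochberg adjustment over all genes tested. The SE is the log2FC divided by the square root of F. The fit was also run on simulated data without an outlying library, and no result given here rests on that run. A fold against controls without counts used a floor of 3 counts over the group. DESeq2 1.42.0, other filters and scalings, the replicate block and leaving out each library were alternatives.

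Named are the 10 genes with the highest mean CPM in infested libraries, annotated genes, genes named in the paper, genes at the thresholds, 5 genes without control counts with the most counts, and genes called between the times without overlap. *Solyc08g036660*, called with overlap, and *Solyc04g078325*, one of a neighbouring pair, were named after their values were seen. The genes and lists were chosen with earlier results of these data known. No gene sequences or coordinates were analysed here.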

Additional observations from a re-analysis of the deposited data

How the results depend on the processing

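The number of genes that met the rule followed its limits. It was 11, 15 and 43 with control limits of 3, 5 and 20 counts, 50 and 14 with mean CPM limits of 1 and 5, and 6 with at least 2 CPM in each infested library. It was 22 to 33 with a single library left out, 22 when this was infested 24 h replicate 1 and 33 when it was control 24 h replicate 2. The number higher in infested 24 h than infested 5 h leaves (2 as reported) was 0 with the 6 infested libraries alone, 0 with the replicate block, 0 at an adjusted p below 0.01, 0 for the difference of the responses, and 5 without the libraries numbered 2 of both 24 h groups, a setting chosen after seeing the data. It was 0 to 5 with a single library left out. Of all genes tested, 3149 were called higher as reported, and 2771, 2895, 1830, 125 and 3111 in the named settings in that order. The number lower (2 as reported) was 0 with library totals only, 1 with the DESeq2 Wald test, 1 with the 6 infested libraries alone, 0 with the replicate block, 0 at an adjusted p below 0.01, 0 for the difference of the responses and 1 without the libraries numbered 2 of both 24 h groups. It was 0 to 3 with a single library left out. Of all genes tested, 3165 were called lower as reported, and 1628, 3265, 2347, 2988, 1922, 268 and 2954 in the named settings in that order. The number with a log2FC above 0 (9) was 15 without those libraries, and 7 to 17 with a single library left out. The log2FC of *Solyc11g010980* (2.30) became −1.53 as a difference of the responses, with an SE of 4.32. The causes were not tested.

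Replicate numbers did not pair the samples. Of 18 same-numbered pairs, 4 had a correlation of deviations over 0.1 (range −0.27 to 0.34) and in 4 a sample correlated best with its own number. Under the replicate block none of the 28 genes was called between the feeding times, and 4 of them were called without it. Of all 18200 genes tested, the block called 2895 higher and 2988 lower, beside 3149 and 3165 without it. The mean share of counts with a single library left out was 0.0401% to 0.0803% in infested 24 h and 0.0167% to 0.0297% in infested 5 h leaves. Without the gene with the most counts it was 0.0416% at 24 h and 0.0231% at 5 h. With TMM factors it was 0.0510% at 24 h and 0.0274% at 5 h.

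The call between the times rests on 3 libraries per group whose spread for these genes is large, and levels in control leaves lie near the floor of 3 counts. Feeding time cannot be told apart from hour of harvest and from the shared input of each time in the file headers.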

Other observations

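Genes kept outside by a single control library, chosen after their values were seen, showed a similar layout. Without control 24 h replicate 2, 5 more genes met the rule, *Solyc11g071480*, *Solyc03g098760*, *Solyc03g116890*, *Solyc09g083360* and *Solyc12g049400*. *Solyc11g071480*, characterized in the study as a putrescine hydroxycinnamoyl transferase, had 72.2, 0.796 and 47.8 CPM in infested 24 h leaves and 13.5, 56.3 and 56.4 CPM in infested 5 h leaves. Its 12 counts in control 24 h replicate 2 were the only ones in the 6 control libraries. *Solyc03g098760*, annotated as an endopeptidase inhibitor, had 272, 14.5 and 210 CPM in infested 24 h leaves and 18.9, 100.5 and 22.5 CPM in infested 5 h leaves, against 18 counts in control 24 h replicate 2, 2 in control 5 h replicate 2 and none in the other control libraries. Control 24 h replicate 2 was also the control library with the highest summed CPM of the response to wounding list, 103.

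*Solyc03g098720*, another gene annotated as an endopeptidase inhibitor, is the next identifier after *Solyc03g098710* in the numbering and stayed outside with up to 37 counts in a control library. It had 1494, 51.7 and 548 CPM in infested 24 h leaves and 15.6, 109 and 25.1 CPM in infested 5 h leaves. The library order of *Solyc03g098710* was the same at both times.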
